A study of Mus musculus with 10 samples.

Results

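Clustered histone genes were followed in 10 mouse ovaries by RNA sequencing. The genes were taken by name, as symbols of the Hist1 to Hist4 series or of the newer H1f, H2ac, H2bc, H3c and H4c series without pseudogene names, and they were selected on their measured counts, with at least 10 reads summed over the 10 ovaries. This left 62 genes of the 55487 in the table. Of 72 names that matched, 2 ended as pseudogenes and 8 held under 10 counts. H2bc14 and H2ac14 lay just inside that limit, with 10 and 11 counts, and Hist1h2bp and Hist1h2al just outside it, with 8 counts each. H2ac14 is annotated as an unprocessed pseudogene.

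The 62 genes comprised 9 for the linker histone H1 and, for the core histones, 17 for H2A, 14 for H2B, 11 for H3 and 11 for H4. The name rule did not match the clusters exactly. GENCODE placed 59 of the genes in the histone clusters, 51 in the large cluster on chromosome 13 (Hist1) and 8 in the smaller one on chromosome 3 (Hist2). The other 3 were H1f0, H1f8 and H1f10, which lie outside the clusters. H1f0 and H1f10 encode linker histones made independently of DNA replication, and H1f8 encodes the linker histone of the oocyte. They are treated apart below.

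Replication-dependent histone genes supply the histones that package newly copied DNA, and most of their mRNA is made in S phase. Their mRNAs are the only known animal mRNAs that normally lack a poly(A) tail. They end instead in a short stem-loop, which is bound by the protein SLBP and cut a few bases downstream with the help of the U7 snRNP. Several of these genes can also use a poly(A) signal further downstream, mostly in differentiated or non-dividing cells. In the ovary, granulosa cells of growing follicles are the main dividing cells.

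All mice had the genetic background of C57BL/6J. The 4 Control ovaries came from mice 8 weeks old, and the 3 Aged and 3 Aged+CF ovaries from mice 11 months old by the labels and 10 months old by the methods. Aged+CF mice received 200 µL of CEFFE, a cell-free extract of fat tissue, at 3 µg/µL through the tail vein every 2 days for 2 weeks, while Control and Aged mice received saline. All mice of the 3 groups were given 10 IU PMSG, a gonadotropin that stimulates follicle growth, 48 h before collection. Ovaries are named here by the numbers in their labels, 31 to 34 for Control, 31, 33 and 34 for the Aged group, and 30, 32 and 34 for Aged+CF. The labels do not state that the ovaries came from separate mice, so p-values measure the spread between these samples.

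Each library held between 15761789 and 21318254 counts. The Aged group was uneven. Aged 34 held 15.5 CPM (read counts scaled to library size with TMM factors) over 13 oocyte markers, against 114 and 134 CPM in the other Aged ovaries and 177 to 656 CPM in the Control and Aged+CF ovaries. It held 2659 CPM over 7 B and plasma cell markers, against 21.7 and 239 CPM in Aged 33 and Aged 31. Counts of calls, class sums and the ranges of the differences in comparisons with the Aged group are therefore also given without Aged 34. Fewer cells of a type and less RNA per cell cannot be told apart in whole ovaries.

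The stem-loop was read from the GENCODE transcripts (GRCm38), where it was searched as 16 bases with 6-base arms that pair fully. It was present in the models of 41 of the 62 genes, and 23 of these carried the same 16 bases. The stem-loops of genes described below are printed 5′ to 3′ with 5 flanking bases on each side where the model holds them, and capitals mark the stem and the loop.
H1f2: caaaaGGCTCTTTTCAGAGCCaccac
H1f3: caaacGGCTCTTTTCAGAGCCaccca
H2bc6: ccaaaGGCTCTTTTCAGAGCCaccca
H2bc8: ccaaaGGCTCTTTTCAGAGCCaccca
H3c15: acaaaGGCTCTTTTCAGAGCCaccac
H4c8: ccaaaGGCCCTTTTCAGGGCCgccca
H4c9: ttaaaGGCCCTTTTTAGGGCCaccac
H4c11: ctaaaGGTCCTTTTCAGGACCaccac
H4c14: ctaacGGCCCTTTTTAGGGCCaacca
H2ac7: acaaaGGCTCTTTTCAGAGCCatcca
Hist1h2ao: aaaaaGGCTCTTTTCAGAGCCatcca
The sequences of H1f2, H1f3, H2bc6, H2bc8, H3c15, H2ac7 and Hist1h2ao share all 16 bases, and the H4 genes differ in the arms or the loop. Gene models differed more downstream than in the stem-loop. In 18 genes the model ended within 50 bases of it, at 31 bases in Hist1h2ao, 42 in H2ac7 and 46 in H4c8. In 23 genes the model continued further, by 155 bases in H2bc8, 330 in H4c9, 377 in H3c15, 385 in H4c11, 840 in H1f2, 1257 in H4c14, 1861 in H2bc6 and 4884 in H1f3. No such stem-loop was found in the models of H2bc4 and H2bc21, or in those of H1f0, H1f8 and H1f10.

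The 11 genes that were higher in Aged lie in both clusters. On chromosome 13 they are H4c11 (Hist1h4j, chr13:21735064-21735837, plus strand), H4c8 (Hist1h4h, chr13:23531050-23531519, plus), H1f3 (Hist1h1d, chr13:23553262-23560686, plus), H2bc8 (Hist1h2bg, chr13:23571396-23572013, plus), H2bc6 (Hist1h2be, chr13:23583670-23621124, minus), H1f4 (Hist1h1e, chr13:23620629-23622558, minus), H2bc4 (Hist1h2bc, chr13:23684199-23692908, plus) and H1f2 (Hist1h1c, chr13:23738808-23740367, plus). On chromosome 3 they are H2bc21 (Hist2h2be, chr3:96221119-96223738, plus), H3c15 (Hist2h3c2, chr3:96238108-96239127, minus) and H4c14 (Hist2h4, chr3:96261682-96263311, minus). All have single-exon models apart from H2bc4 and H2bc6, whose models have up to 2 exons.

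Levels between genes were compared as FPKM, which divides by gene length, so a long model lowers the value. H1f3 and H2bc6, with longest models of 7425 and 2506 bases, averaged 2.71 and 2.77 CPM but 0.351 and 0.381 FPKM. A low FPKM is therefore not the same as few reads. Most of the clustered genes had a low mean FPKM. The mean over 10 ovaries was under 1 FPKM for 42 of 59 genes, between 1 and 10 FPKM for 10, and at 10 FPKM or more for 7. These 7 were H1f2 (64.1 FPKM), H2bc4 (59.5), H2ac18 (36.7), H2bc8 (26.7), H2bc21 (23.6), H3c15 (16.5) and H4c9 (13.2). The highest of all 62 genes was H1f0, outside the clusters, at 94.7 FPKM. The germ-cell histone genes H2ac1 (Hist1h2aa) and H1f6 (Hist1h1t) averaged 0.206 and 0.0755 FPKM, and H2bc1 (Hist1h2ba) held 6 counts in all and was not a member. Together the 59 clustered genes took 0.0149% to 0.0269% of all counts in Control, 0.0277% to 0.0733% in Aged and 0.0244% to 0.034% in Aged+CF.

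H2A and H2B genes often lie head to head, sharing the sequence between their starts. There were 11 such pairs among the members, with 175 to 301 bases between the models. H2A and H2B are needed in equal amounts in the nucleosome, but the levels of paired genes were unequal. H2bc4 averaged 59.5 FPKM and its partner H2ac6 0.329 FPKM. The model of H2ac6, at 2482 bases, is longer than that of H2bc4, at 1156 bases, which widens the gap in FPKM. In CPM these 2 genes averaged 70.4 and 0.833. H2bc8 averaged 26.7 FPKM and H2ac8 1.06 FPKM. H2bc21 averaged 23.6 FPKM and H2ac20 0.404 FPKM. The H2B gene was higher in 6 pairs and the H2A gene in 5, and in the other pairs both genes stayed below 2 FPKM. The widest gap in which the H2A gene was higher was that of Hist1h2ao at 1.73 FPKM and Hist1h2bq at 0.353 FPKM.

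**Figure D1:**
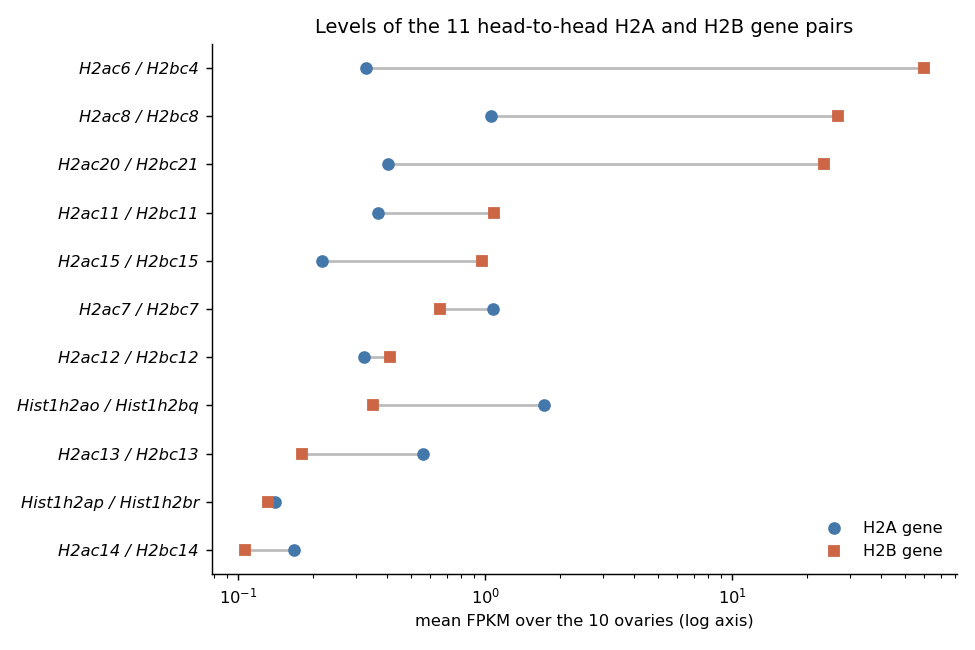
Mean FPKM over the 10 ovaries (log axis) of the H2A gene (circle) and the H2B gene (square) in each of 11 head-to-head pairs, joined by a line. In the 3 pairs at the top the H2B gene lies between 23.6 and 59.5 FPKM and the H2A gene between 0.329 and 1.06 FPKM.

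Promoter sequence was matched for 50 of the 62 genes in the RefSeq table (GRCm38.p6). The octamer ATTTGCAT, the site read by POU-family factors such as OCT1 in H2B promoters, was searched on either strand in the 250 bases before the RefSeq start and found in 11 of the 50 windows, 6 of 14 for H2A and 5 of 10 for H2B and none for H1, H3 or H4. It was present in 1.6% of the 250-base windows of all 32851 entries in the table. CCAAT was found in 41 of the 50 windows and in 33.8% of all windows, and TATAAA in 22 of the 50 and in 12.4% of all. Windows of head-to-head partners overlap, so the same match can be counted for both genes. That was so for the octamer of H2ac8 and H2bc8 and for that of H2ac12 and H2bc12. For 4 genes that were higher in Aged, the 200 bases nearest to the start are shown to compare them, with matches to the 3 motifs on either strand in capitals. They cover chr13:23571200-23571399 (plus strand), chr13:23585971-23586170 (minus strand), chr13:23738607-23738806 (plus strand) and chr13:23530844-23531043 (plus strand).
H2bc8: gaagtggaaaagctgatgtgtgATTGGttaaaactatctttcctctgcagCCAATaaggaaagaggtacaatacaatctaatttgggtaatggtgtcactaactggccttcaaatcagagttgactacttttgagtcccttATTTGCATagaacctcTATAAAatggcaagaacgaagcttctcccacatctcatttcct
H2bc6: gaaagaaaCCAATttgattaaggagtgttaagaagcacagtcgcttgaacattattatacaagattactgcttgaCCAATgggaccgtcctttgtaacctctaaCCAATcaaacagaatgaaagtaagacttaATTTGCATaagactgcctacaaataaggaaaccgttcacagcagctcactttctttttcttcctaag
H1f2: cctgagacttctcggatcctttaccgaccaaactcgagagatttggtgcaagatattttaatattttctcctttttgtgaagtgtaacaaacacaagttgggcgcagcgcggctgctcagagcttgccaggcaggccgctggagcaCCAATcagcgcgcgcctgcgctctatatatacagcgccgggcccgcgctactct
H4c8: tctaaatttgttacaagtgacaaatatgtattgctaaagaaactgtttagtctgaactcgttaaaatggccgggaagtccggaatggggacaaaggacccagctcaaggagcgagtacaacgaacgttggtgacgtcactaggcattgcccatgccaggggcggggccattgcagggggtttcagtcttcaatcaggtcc
The H2bc8 window, which is also the promoter of H2ac8, held 1 octamer, 2 CCAAT matches and 1 TATAAA. The H2bc6 window held 1 octamer and 3 CCAAT matches, the H1f2 window 1 CCAAT match, and the H4c8 window none of the 3. A match is a description of these letters only.

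Of the 62 genes, 29 passed the filter on low counts and were tested, 26 of them in the clusters. By histone these were 3 clustered H1 genes, 5 H2A, 7 H2B, 5 H3 and 6 H4. The 33 genes not tested held 10 to 84 counts each over all ovaries, and their summed level was 5.84 ± 0.499 CPM in Control (SD, n = 4), 9.03 ± 3.67 CPM in Aged (SD, n = 3) and 5.07 ± 1.13 CPM in Aged+CF (SD, n = 3). H1f4, H2bc11, H3c3, H3c6, H4c11 and Hist1h4n passed only because of the Aged ovaries, since 23 genes pass with Control and Aged+CF alone. Counts over the genes tested are therefore a description and not support.

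The Aged vs Control comparison asks how the genes differed between old and young ovaries. Of the 21 clustered genes tested for H1, H2B, H3 and H4, 11 were higher in Aged, by 2.7- to 5.2-fold, and 10 did not pass. None of the 5 H2A genes tested passed with every ovary kept, and 2 linker histone genes outside the clusters were lower. The classes were not tested against each other. Of the 29 genes tested, 11 rose and 2 fell (edgeR quasi-likelihood test, fold change of at least 1.5 and adjusted p under 0.05). Over all 18956 genes tested, 5.0% rose and 6.06% fell. The 11 genes that rose were H1f2, H1f3, H1f4, H2bc4, H2bc6, H2bc8, H2bc21, H3c15, H4c8, H4c11 and H4c14, all in the clusters, and H1f4 and H4c11 were among the genes that passed the filter only because of the Aged ovaries. The median log2 fold change was 1.37 over the 26 clustered genes tested and −0.0005 over all genes tested. With no filter it was 0.78 over all 62 genes.

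Of the 7 H2B genes tested, 4 rose, and H2bc4 and H2bc8 had the smallest adjusted p of the clustered genes. H2bc4 stood at 53.9, 33.98, 47.6 and 34.7 CPM in Control 31 to 34, at 114, 154 and 88.1 CPM in Aged 31, 33 and 34, and at 52.5, 70.5 and 54.7 CPM in Aged+CF 30, 32 and 34. Every Aged ovary was above every other ovary (log2 fold change 1.48 ± 0.22 SE, edgeR adjusted p = 0.0055). H2bc8 stood at 11.7, 9.16, 11.5 and 9.22 CPM in Control, 27.3, 35.98 and 20.02 CPM in Aged, and 12.7, 17.5 and 13.8 CPM in Aged+CF. Its Aged values also lay above all others (1.41 ± 0.21 SE, edgeR adjusted p = 0.0053). H2bc6 stood at 1.93, 0.873, 2.48 and 0.795 CPM in Control and 3.996, 6.56 and 4.85 CPM in Aged, without overlap (1.75 ± 0.41 SE, edgeR adjusted p = 0.021). H2bc6 and H1f4 models overlap on the same strand, so reads in the shared part cannot be told apart.

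H2bc21, an H2B gene of the chromosome 3 cluster, stood at 51.1, 26.6, 44.3 and 25.0 CPM in Control, and at 152, 172 and 41.0 CPM in Aged 31, 33 and 34 (log2 fold change 1.72 ± 0.43 SE, edgeR adjusted p = 0.027). Aged 34 lay within the Control range. The same split was seen in H3c15, a replication-dependent H3 gene, at 12.6, 5.92, 10.45 and 4.51 CPM in Control and 43.7, 52.9 and 12.02 CPM in Aged (2.11 ± 0.48 SE, edgeR adjusted p = 0.019). H1f2, the most abundant clustered H1 gene, stood at 68.7, 53.4, 71.7 and 38.2 CPM in Control and 229.8, 175.9 and 67.2 CPM in Aged (1.44 ± 0.40 SE, edgeR adjusted p = 0.037). H1f3, another linker histone gene, stood at 2.22, 1.06, 1.42 and 0.318 CPM in Control and 11.99, 6.56 and 1.10 CPM in Aged (2.38 ± 0.71 SE, edgeR adjusted p = 0.049).

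Among the H4 genes, H4c8 was higher in all Aged ovaries, at 2.57, 1.62, 3.14 and 1.22 CPM in Control and 7.40, 10.4 and 3.25 CPM in Aged (1.70 ± 0.41 SE, edgeR adjusted p = 0.024). H4c11 stood at 0.525, 0.561, 0.609 and 0.530 CPM in Control and 3.76, 1.69 and 0.772 CPM in Aged (1.88 ± 0.50 SE, edgeR adjusted p = 0.032). H4c14 stood at 1.17, 0.561, 0.456 and 0.530 CPM in Control and 2.80, 2.40 and 1.16 CPM in Aged (1.64 ± 0.41 SE, edgeR adjusted p = 0.027). H4c9, the most abundant H4 gene, stood at 9.34, 5.61, 7.35 and 3.66 CPM in Control and 27.1, 28.5 and 2.92 CPM in Aged, and did not pass (1.58 ± 0.60 SE, edgeR adjusted p = 0.099). H4c12 gave 1.24 ± 0.49 SE with an edgeR adjusted p of 0.11. H4c9 was thus high in Aged 31 and 33 and lower in Aged 34 than in any Control ovary.

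**Figure D2:**
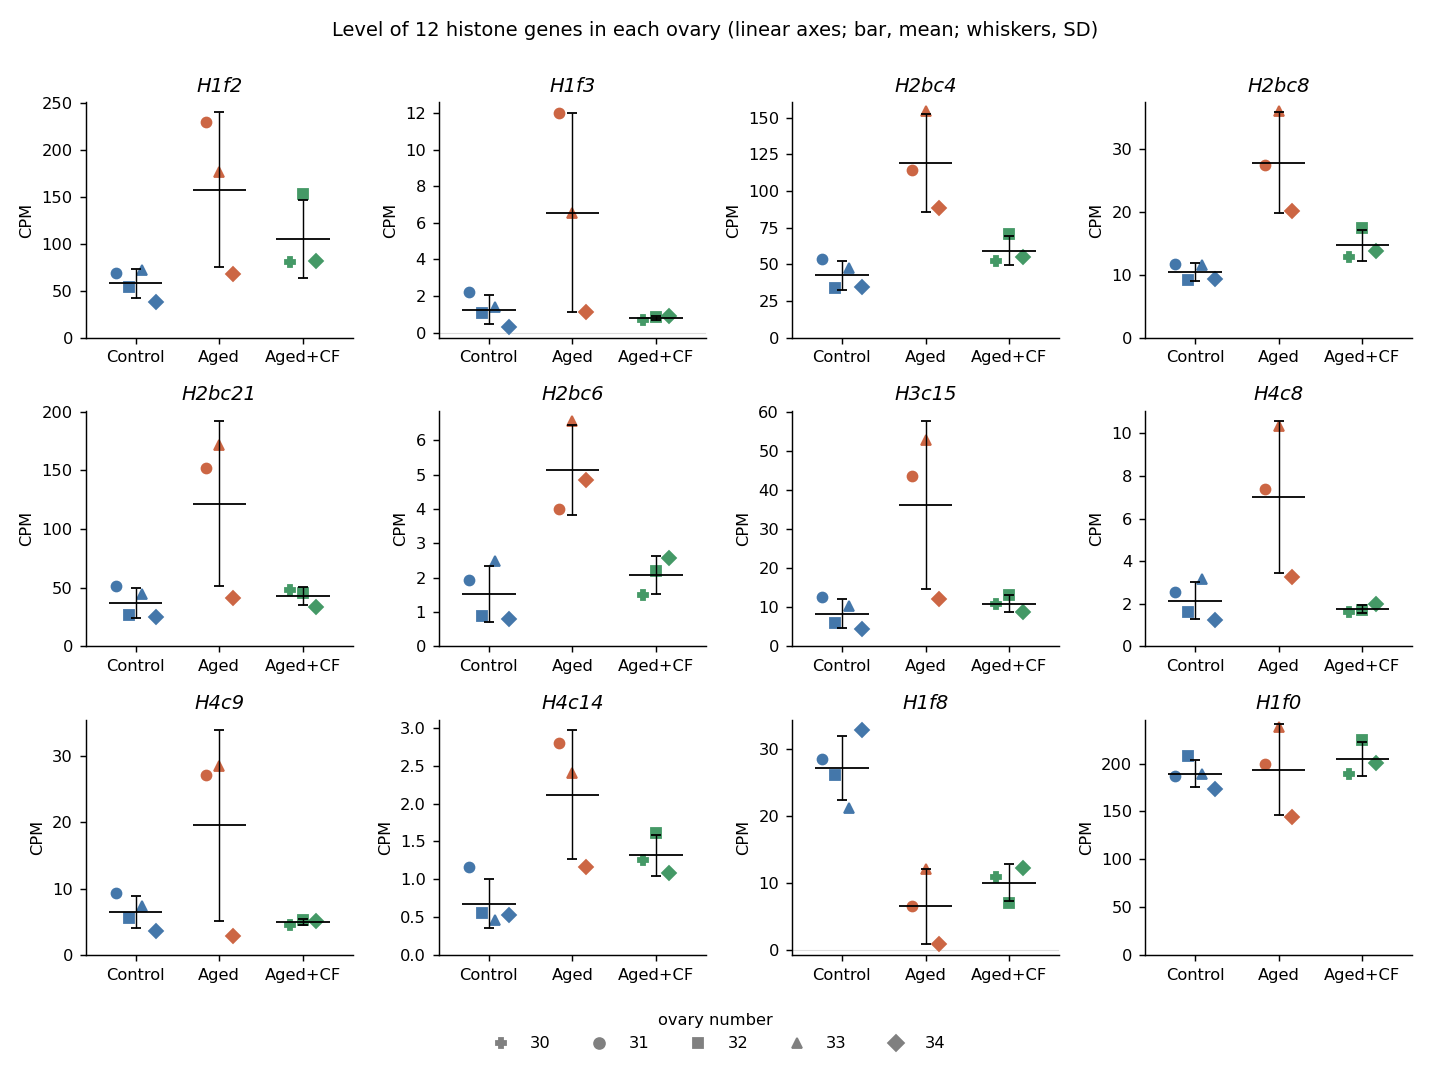
CPM of 12 histone genes in each ovary on linear axes, with the group mean (bar) and SD (whiskers). Symbols mark the ovary number, and colours the groups Control (n = 4), Aged (n = 3) and Aged+CF (n = 3). Aged 31 (circle) and Aged 33 (triangle) are highest in most clustered genes, and Aged 34 (diamond) reaches 88.1 CPM in H2bc4 but 2.92 CPM in H4c9.

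The unevenness ran through the set. All of the 11 genes that rose were above every Control ovary in Aged 31 and in Aged 33, but only 6 in Aged 34, and Aged 34 was the lowest Aged ovary for 10 of the 11. Thus the Aged and Control groups did not overlap in 6 of the 29 genes in the upward direction, H1f4, H2bc4, H2bc6, H2bc8, H4c8 and H4c11, against 11.8% of all genes tested. H1f4 and H4c11 passed the filter only because of the Aged ovaries, so this count and those below are a description and not support. Leaving out Aged 34 gave 18 calls in place of 13, with 16 higher and 2 lower. The median log2 fold change of the members tested was then 1.65 in place of 1.24. Without Aged 34 the filter passed 31 members in place of 29, so the gene sets differ. All 11 genes that rose stayed called without Aged 34, with log2 fold changes from 1.64 to 2.92, and H2ac6, H2bc9, H4c9, H4c12 and Hist1h2bq were added. Leaving out Aged 31 or Aged 33 left 4 calls, Control 32 or Control 34 left 2, and Control 33 left 7. The share of all genes called in these fits, or without Aged 34, is not given here. The counts therefore show only how far the calls depended on single ovaries. H2bc4 and H2bc8 stayed called whichever ovary was left out. DESeq2 called 12 of the 29 genes higher, against 7.32% of all genes it tested, and added H4c9. At an unadjusted p under 0.05, 16 of 29 genes were higher, against 8.79% of all genes.

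Of the other clustered genes tested, several leaned the same way without passing. H2bc9, an H2B gene, stood at 1.23, 0.561, 1.42 and 0.477 CPM in Control and 2.62, 2.89 and 1.10 CPM in Aged (1.24 ± 0.45 SE, edgeR adjusted p = 0.091). Hist1h2bq, also of H2B, stood at 1.17, 0.499, 0.811 and 0.636 CPM in Control and 2.92, 1.90 and 0.717 CPM in Aged (1.23 ± 0.46 SE, edgeR adjusted p = 0.094). H2bc11 gave 0.41 ± 0.51 SE and the H4 gene Hist1h4n 1.04 ± 0.91 SE. H3c6 gave −0.26 ± 0.80 SE. In all, 23 of the 26 clustered genes tested had a positive difference and 3 a negative one, none of the 3 past the test.

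Of the H2A genes tested, 3 gave log2 fold changes between −0.22 and 0.21. H2ac7 gave a log2 fold change of 0.18 ± 0.51 SE, H2ac8 0.21 ± 0.43 SE and Hist1h2ao −0.22 ± 0.53 SE. These 3 genes stayed at or under 1.37 CPM in every ovary. H2ac6, the partner of H2bc4, gave 1.32 ± 0.51 SE with an edgeR adjusted p of 0.11, and passed without Aged 34 (1.71 ± 0.48 SE, edgeR adjusted p = 0.033). Much of the sequence of H2ac7 and Hist1h2ao is shared with other genes, as given below. Summed over the 15 H2A genes other than H2ac18 and H2ac19, the level was 4.18 ± 0.843 CPM in Control (SD, n = 4), 5.24 ± 2.65 CPM in Aged (SD, n = 3) and 4.21 ± 0.499 CPM in Aged+CF (SD, n = 3). The ratio of Aged to Control means was 1.25, and 1.62 without Aged 34. The ratio of Aged+CF to Aged means was 0.804, and 0.623 without Aged 34. Without that ovary H2ac7 gave 0.63 ± 0.46 SE and H2ac8 0.60 ± 0.40 SE in Aged vs Control, and neither passed. The difference of Hist1h2ao turned to 0.31 without Aged 34, and that of H2ac7 to −0.61 without Aged 31. Of the H3 genes, H3c3 gave −0.49 ± 0.83 SE and H3c4 0.74 ± 0.53 SE, and neither passed.

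The gene models of the 11 genes that rose differed in their 3′ ends. In 8 of them the model ran over 50 bases past the stem-loop, and these include H1f4 and H4c11, which passed the filter only because of the Aged ovaries. In H4c8 the model ended within 50 bases of it, and in H2bc4 and H2bc21 no stem-loop was found. Of all clustered genes, 23, 18 and 18 had models of these 3 kinds, and 16, 6 and 4 of them were tested. Some models without a stem-loop are short, with 312 bases in H4c12 and 381 in H2bc13 and H2bc15. A stem-loop beyond the end of a model would be missed, so the last kind describes models and not genes. Whether the kinds differ in their response was not tested. Longer models collect more reads, so they pass the filter more easily. As FPKM, the median level was 0.459 over the 23 genes of the first kind, 0.55 over the second and 0.366 over the last. The kit that set whether RNA without a poly(A) tail was captured is not given in the sources used here. Of 13 RNAs that lack a poly(A) tail, such as Rn7sk, 5 had no count in any ovary, and the 13 together summed to 5.57 to 11.2 CPM in Control, 6.26 to 12.2 CPM in Aged and 5.86 to 11.98 CPM in Aged+CF.

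Many levels could not be assigned firmly to a gene. In 32 of the 62 genes more than 50% of the 50-base stretches also occurred in a transcript of another gene, and 10 of the 29 genes tested were among them. On chromosome 13 the share was 97.3% for Hist1h2bq, 93.5% for Hist1h2ao, 85.6% for Hist1h4n, 73.4% for H3c6, 71.5% for H4c12, 67.1% for H2ac7 and 59.4% for H2bc11, so the values of these genes, also within head-to-head pairs, are uncertain. Of the 11 genes that rose, 1 was above that limit, H3c15 at 63.5%. H2bc8 at 49.7% and H4c8 at 45.8% lay just under it, and H2bc4 stood at 30.6%. The levels of H2bc8, H4c8 and H2bc4 therefore also rest in part on shared sequence. Among the 11 the share was lowest in H2bc21, at 0.0%, and H4c14, at 1.01%. On chromosome 3, H2ac18 and H2ac19 share their sequence, as do much of H3c14 and H3c15, and all 50-base stretches of H2ac18, H2ac19 and H3c14 occurred in a transcript of another gene. H2ac18 held 0, 0, 613 and 275 counts in Control 31 to 34, 1, 2266 and 0 counts in Aged 31, 33 and 34, and 0, 0 and 603 counts in Aged+CF. Such all-or-none counts did not follow the groups, and its log2 fold change of 2.21 ± 2.27 SE did not pass. Gm20634, a transcript that overlaps H2ac18 and H3c14 on the same strand, held 2663 counts in Aged 31, where H2ac18 held 1. H3c14 held 221, 115, 139 and 2 counts in Control, 113, 89 and 414 counts in Aged and 217, 206 and 35 counts in Aged+CF (0.82 ± 0.98 SE). The 6 genes of this stretch, from H3c15 to H3c14 on chromosome 3 from base 96238108 to base 96248509, were therefore also summed. They include Gm20634 and Gm20632, an antisense transcript to H2ac19 that is not a histone gene. Gm20632 held 718, 481, 957 and 378 counts in Control. In Aged it held 1991, 2421 and 750 counts and in Aged+CF 755, 972 and 784, so the sum is not one of histone genes alone. The sum was 67.4, 43.1, 103 and 49.5 CPM in Control, 328, 428 and 76.2 CPM in Aged, and 66.7, 80.7 and 85.4 CPM in Aged+CF. Aged 31 and Aged 33 were again highest, and Aged 34 lay within the Control range.

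The linker histone genes outside the clusters did not share the rise. H1f0 stood at 187, 208, 189 and 174 CPM in Control, 199.6, 238 and 144 CPM in Aged, and 189, 225 and 200.2 CPM in Aged+CF, and the Aged vs Control difference was 0.03 ± 0.15 SE. Its sign turned without Control 34 (−0.01) or without Aged 33 (−0.11). H1f10 stood at 54.9, 66.6, 56.2 and 59.1 CPM in Control and 37.0, 36.0 and 24.1 CPM in Aged, without overlap, and fell by 0.87 ± 0.21 SE on the log2 scale (edgeR adjusted p = 0.022). H1f8, the oocyte linker histone, stood at 28.5, 26.2, 21.3 and 32.8 CPM in Control and 6.62, 12.1 and 0.882 CPM in Aged, and fell by 2.07 ± 0.61 SE (edgeR adjusted p = 0.047). Without Aged 34 they fell by 0.66 ± 0.19 SE and 1.51 ± 0.30 SE (edgeR adjusted p = 0.038 and 0.0092). Of the 29 genes, these 2 were the ones below every Control ovary in all Aged ovaries, against 15.6% of all genes tested. Within Aged, H1f8 and the oocyte markers were both lowest in Aged 34, and 12 of the 13 oocyte markers fell in Aged with a median log2 fold change of −2.53. The part of oocyte content in the H1f8 result was not tested.

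By histone, the clustered H1 genes summed to 60.1 ± 16.3 CPM in Control, 167 ± 88.9 CPM in Aged and 107 ± 42.3 CPM in Aged+CF (SD, n = 4, 3 and 3). The H2B genes summed to 95.0 ± 25.5, 280.4 ± 111 and 122 ± 16.5 CPM. The H3 genes summed to 18.3 ± 9.44, 52.0 ± 14.1 and 21.6 ± 8.12 CPM, and the H4 genes to 13.1 ± 4.34, 37.5 ± 23.5 and 11.5 ± 2.09 CPM. The ratio of Aged to Control means was 2.77 for H1, 2.95 for H2B, 2.84 for H3 and 2.85 for H4. Without Aged 34 these ratios were 3.57, 3.60, 3.26 and 3.89. Most of the H3 sum came from H3c14 and H3c15, whose counts could not be assigned firmly. They averaged 6.81 and 8.37 CPM in Control and 11.9 and 36.2 CPM in Aged. The H3 ratio therefore describes mainly these genes and not the other H3 genes. All 59 clustered genes summed to 245, 162, 256 and 144 CPM in Control, 666, 843 and 277 CPM in Aged, and 239, 341 and 247 CPM in Aged+CF. H1f2, H2bc4, H2bc21, H2bc8, H3c15 and H4c9 made up most of this sum, at 163 ± 44.5 of 202 ± 57.0 CPM in Control (SD, n = 4). Without H2ac18, H2ac19, H3c14 and H3c15 the sum was 176 ± 45.6 CPM in Control and 493 ± 217 CPM in Aged.

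**Figure D3:**
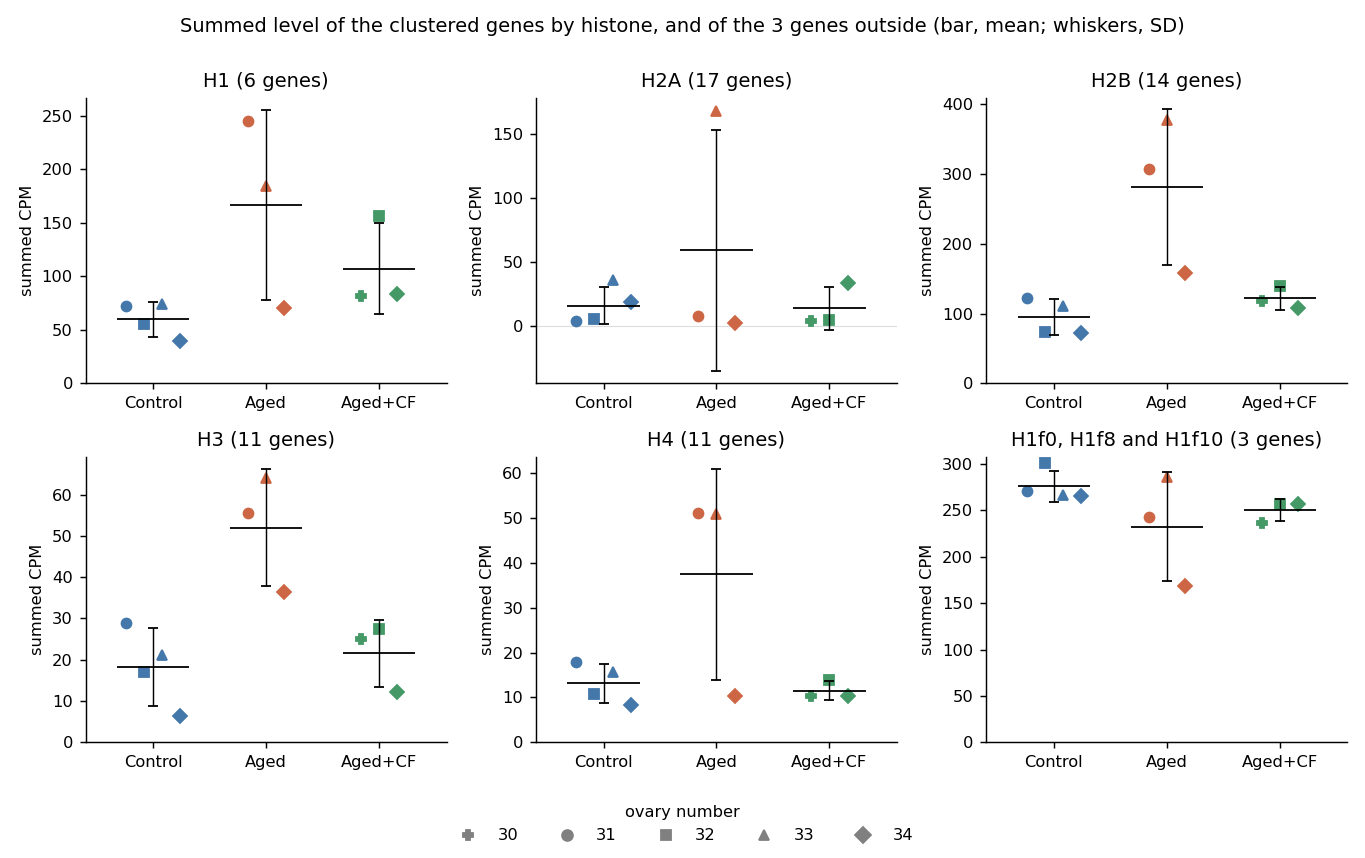
Summed CPM in each ovary of the clustered H1, H2A, H2B, H3 and H4 genes, and of H1f0, H1f8 and H1f10, with the group mean (bar) and SD (whiskers). H2B sums are 158 CPM or more in every Aged ovary and 139.8 CPM or less in every other ovary, while the H2A panel follows the counts of H2ac18 in single ovaries.

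Genes that act with DNA replication moved the other way in Aged. Of 20 S phase genes, 18 fell and none rose in Aged vs Control, with a median log2 fold change of −1.10, and 15 fell without Aged 34. Mki67, a marker of dividing cells, fell by 1.95 ± 0.31 SE (edgeR adjusted p = 0.0064), Top2a, which untangles copied DNA, fell by 1.76 ± 0.39 SE (edgeR adjusted p = 0.018), and Mcm5, a subunit of the replicative helicase, fell by 1.51 ± 0.28 SE (edgeR adjusted p = 0.011). In summed level the S phase genes held 1051 to 1436 CPM in Control, 378 to 688 CPM in Aged and 749 to 893 CPM in Aged+CF, so the groups did not overlap. The clustered histone genes were thus higher in the ovaries where the S phase genes were lower, but within the Aged group Aged 34 was lowest in both.

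Of the 16 tested genes that make and process histone mRNA, 5 passed the adjusted p in Aged vs Control, all lower, and 1 of them also passed the fold limit. Their summed level was 1046 to 1125 CPM in Control, 952 to 999 CPM in Aged and 974 to 1018 CPM in Aged+CF, without overlap between Control and Aged. Slbp, the stem-loop binding protein, stood at 45.8 ± 4.43 CPM in Control (SD, n = 4), 33.1 ± 4.06 CPM in Aged and 35.7 ± 3.44 CPM in Aged+CF (SD, n = 3 each). Its Aged vs Control difference of −0.47 ± 0.12 SE passed the adjusted p (edgeR, 0.032) but not the fold limit. Npat, the coactivator of clustered histone genes, gave −0.39 ± 0.09 SE (edgeR adjusted p = 0.021), also under that limit, as did Casp8ap2, which acts in histone mRNA transcription and processing, with −0.41 ± 0.10 SE and Cstf2, a cleavage factor subunit, with −0.47 ± 0.10 SE (edgeR adjusted p = 0.023 and 0.014). The gene past both limits was Zfp473, a component of the U7 snRNP pathway, which fell by 1.72 ± 0.26 SE (edgeR adjusted p = 0.0056).

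Histone chaperones and variant histones were lower or did not pass. Of 16 chaperone genes 5 fell and none rose. They included Npm2, an oocyte chaperone, with a fall of 2.13 ± 0.52 SE (edgeR adjusted p = 0.024), and Chaf1a and Chaf1b, subunits of the CAF-1 complex that loads H3 and H4 onto new DNA, with falls of 1.17 ± 0.18 SE and 1.30 ± 0.23 SE (edgeR adjusted p = 0.0057 and 0.0095). Of 12 replication-independent histone genes, a list that also holds H1f0, H1f8 and H1f10, 5 fell and none rose, among them Cenpa, the centromeric H3 variant, by 1.13 ± 0.31 SE (edgeR adjusted p = 0.038). Without Aged 34, 4 chaperone genes fell, and 4 of the replication-independent genes fell and 2 rose. The summed level of the latter was 1398 to 1556 CPM in Control and 1139.7 to 1747 CPM in Aged.

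Markers of other cells moved with the groups as well. All 5 luteal markers rose in Aged, with sums of 2904 to 7139.6 CPM in Control, 10163.9 to 26440.2 CPM in Aged and 8296 to 15729.5 CPM in Aged+CF. Of 6 erythroid markers 5 rose, with sums of 71.8 to 112 CPM in Control, 265 to 638 CPM in Aged and 109 to 260.1 CPM in Aged+CF. In both lists the Aged ovaries ranked 33, 31, 34 from high to low, as the sum of the clustered histone genes did. This order was not particular to those lists. It was also that of the granulosa markers (6243, 5375 and 4106 CPM) and the S phase genes (688, 599 and 378 CPM). The replication-independent histone genes had it too (1747, 1478 and 1139.7 CPM). Of 7 B and plasma cell markers 5 rose, but their highest ovary was Aged 34, where the clustered histone genes were lowest of the Aged group. Aged 33 had the highest histone sum with 21.7 CPM of these markers, and the highest Control ovary also held 21.7 CPM. Of 5 T cell markers 4 rose, with sums of 2.89 to 4.49 CPM in Control, 8.25 to 24.1 CPM in Aged and 5.22 to 6.84 CPM in Aged+CF. None of the 10 granulosa markers or the 5 oviduct markers passed in Aged vs Control. The granulosa markers nevertheless leaned lower, with a median log2 fold change of −0.71. At an unadjusted p under 0.05 with the same fold limit, 4 of the 10 were lower and none was higher. Granulosa sums were 6245 to 9343 CPM in Control, 4106 to 6243 CPM in Aged and 3682 to 6155 CPM in Aged+CF. Oviduct sums were 3.15 to 389 CPM in Control, 1.69 to 298 CPM in Aged and 2.70 to 31.8 CPM in Aged+CF. Without Aged 34 all 5 luteal, 5 erythroid, 4 B and plasma cell and 2 T cell markers rose, 12 oocyte markers fell, and 1 granulosa and 1 oviduct marker fell. None of the marker genes was at 0 in all ovaries. The part of these cell types in the histone result was not tested.

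**Figure D4:**
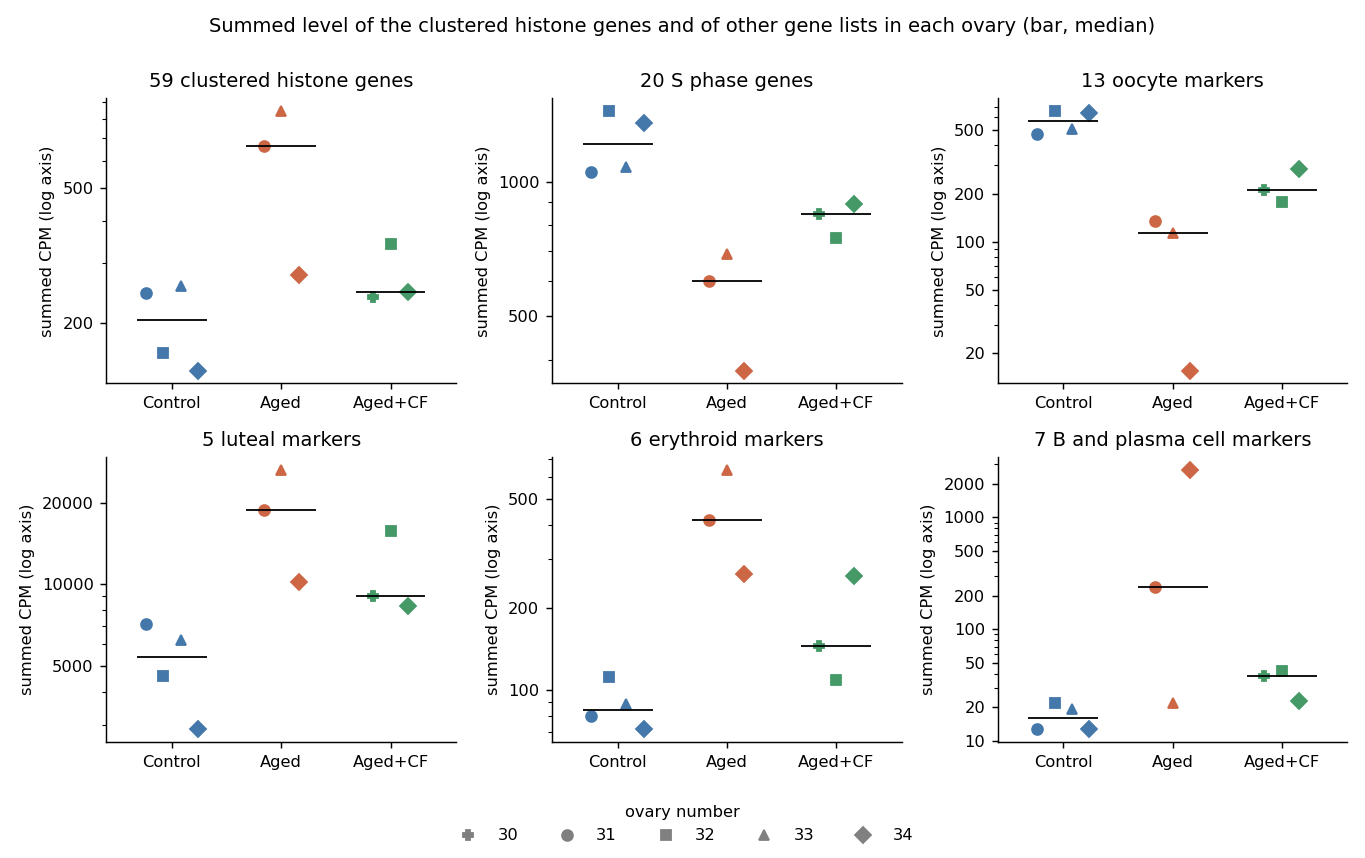
Summed CPM in each ovary (log axes) of the 59 clustered histone genes and of 5 other gene lists, with the group median (bar). Aged 33 and Aged 31 are highest for the histone, luteal and erythroid sums, Aged 34 is highest for the B and plasma cell markers at 2659 CPM, and all Aged ovaries lie below all Control ovaries for the S phase genes and the oocyte markers.

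The Aged+CF vs Aged comparison asks how the genes stood after the extract, and it shares the 3 Aged ovaries with the comparison above, so a low or high Aged value enters both with opposite sign. Clustered histone genes were lower on average in Aged+CF, but none of the 29 genes passed at the adjusted p. Over all genes tested 0.0% were called higher and 0.00528% lower. At an unadjusted p under 0.05 with the same fold limit, 12 of the 29 genes were lower and none was higher, against 4.05% of all genes lower and 3.91% higher. These 12 were H1f3, H2ac6, H2bc4, H2bc6, H2bc8, H2bc9, H2bc21, H3c15, H4c8, H4c9, H4c11 and H4c12. H4c11 passed the filter only because of the Aged ovaries, so this count is a description. The median log2 fold change was −1.17 over the 26 clustered genes tested and −0.02 over all genes tested.

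Of the genes past the unadjusted p, H1f3, H4c8 and H4c11 had the largest differences. H2ac18 gave −2.48 but did not pass it. H1f3 stood at 11.99, 6.56 and 1.10 CPM in Aged and at 0.688, 0.862 and 0.891 CPM in Aged+CF, a difference of −2.99 ± 0.82 SE (edgeR adjusted p = 0.17). All Aged+CF values were below all Aged values, but Aged 34 was close to them. H4c8 stood at 1.61, 1.72 and 1.97 CPM in Aged+CF (−1.98 ± 0.46 SE, edgeR adjusted p = 0.16). H4c11 stood at 0.401, 0.804 and 0.375 CPM in Aged+CF (−1.97 ± 0.55 SE, edgeR adjusted p = 0.17), and Aged+CF 32 was above Aged 34. H2bc4 and H2bc8 gave smaller but more even differences, −1.01 ± 0.24 SE and −0.92 ± 0.22 SE (edgeR adjusted p = 0.16 for both). Groups did not overlap in 6 genes, H1f3, H2bc4, H2bc6, H2bc8, H2bc9 and H4c8, all lower in Aged+CF, against 8.39% of all genes.

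Of the 7 clustered genes at 10 FPKM or more, H1f2 had the smallest difference, at 80.4, 153 and 81.5 CPM in Aged+CF 30, 32 and 34 (−0.59 ± 0.42 SE, edgeR adjusted p = 0.51). All 3 Aged+CF ovaries were above Aged 34, at 67.2 CPM, and all were below Aged 31 and Aged 33. H2bc21 stood at 47.9, 45.7 and 33.7 CPM (−1.52 ± 0.47 SE, edgeR adjusted p = 0.20) and H3c15 at 10.95, 13.04 and 8.77 CPM in Aged+CF (−1.73 ± 0.52 SE, edgeR adjusted p = 0.19). H4c9 stood at 4.47, 5.28 and 5.11 CPM (−1.97 ± 0.66 SE, edgeR adjusted p = 0.21), all above Aged 34 at 2.92 CPM. H1f0, H1f10 and H1f8 gave 0.08 ± 0.16 SE, 0.12 ± 0.22 SE and 0.64 ± 0.62 SE.

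The adjusted result rested on Aged 34. Without that ovary 8 of 31 genes tested were lower in Aged+CF at the adjusted p, H1f3, H2bc4, H2bc8, H2bc21, H3c15, H4c8, H4c9 and H4c11, against 2.16% of all genes, and 19 passed the unadjusted p. The ratio of Aged+CF to Aged sums over the clustered genes was 0.463 with and 0.365 without it. With every ovary kept, DESeq2 called 7 of the 15 members for which it gave an adjusted p, all lower, against 1.43% of all genes. Leaving out any other ovary gave 0 calls at the adjusted p in edgeR and 10 to 14 at the unadjusted p. The share of all genes past the unadjusted p in these fits, or without Aged 34, is not given here.

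**Figure D5:**
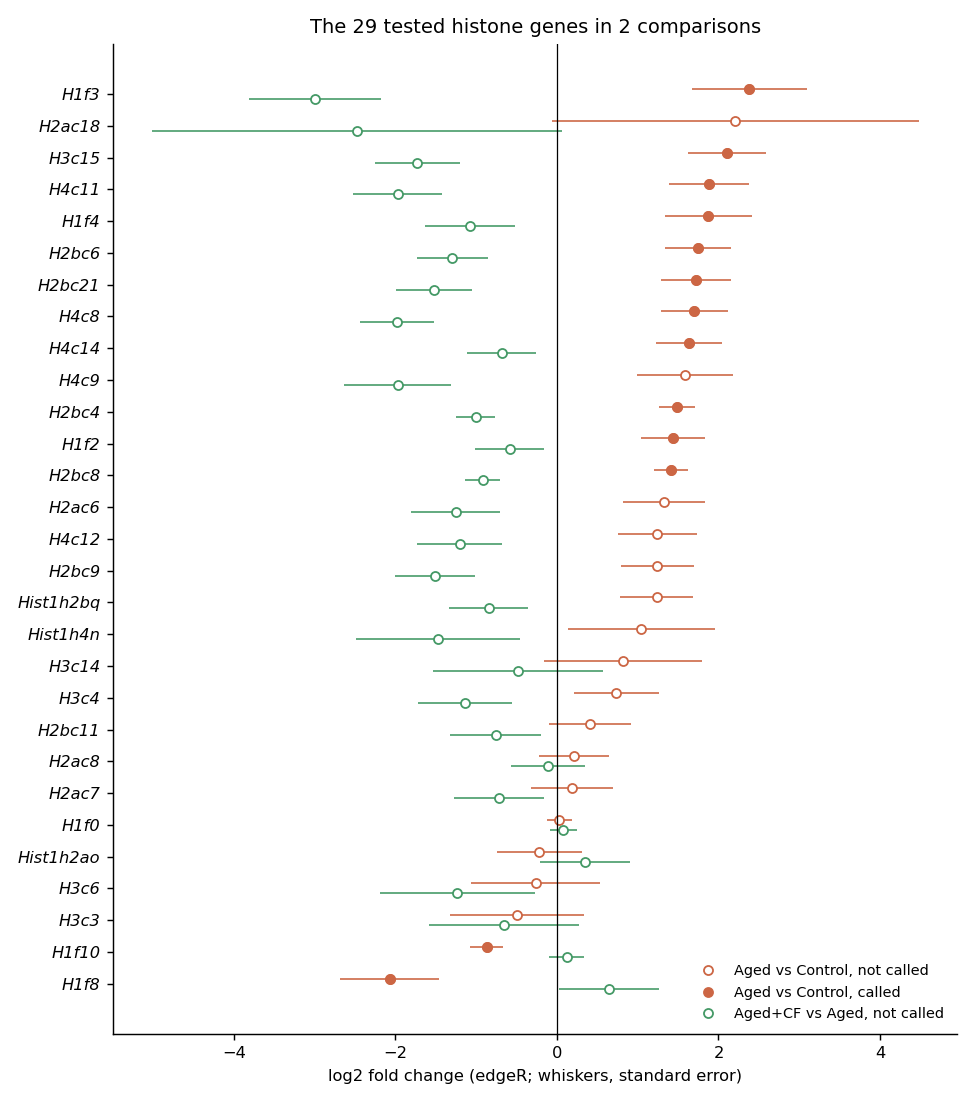
Log2 fold change with its standard error for the 29 tested histone genes for the Aged and Control groups (orange) and for the Aged+CF and Aged groups (green), ordered by the first comparison. Filled points passed the fold and adjusted p limits: 13 of the orange points and 0 of the green ones. H2ac18 has the widest whiskers, at 2.21 ± 2.27 in Aged vs Control, and both comparisons use the same Aged ovaries.

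The Aged+CF vs Control comparison asks how far treated old ovaries stood from young ones. None of the 29 genes was called at the adjusted p in edgeR, against 0.137% of all genes higher and 0.0422% lower, and DESeq2 called 1. For the DESeq2 call the share of all genes is not given here. At an unadjusted p under 0.05 with a fold change of at least 1.5, H4c14 was higher and H1f8 and H1f10 were lower, against 3.33% of all genes higher and 4.36% lower. H4c14 gave 0.95 ± 0.42 SE (edgeR adjusted p = 0.34), H1f8 −1.43 ± 0.59 SE (edgeR adjusted p = 0.31) and H1f10 −0.75 ± 0.21 SE (edgeR adjusted p = 0.16). H2bc8 also passed the unadjusted p but not the fold limit. H2bc8 gave 0.49 ± 0.21 SE, H2bc4 0.48 ± 0.22 SE and H1f2 0.86 ± 0.39 SE, with edgeR adjusted p of 0.32, 0.36 and 0.36. The 59 clustered genes summed to 275 ± 57.0 CPM in Aged+CF (SD, n = 3) and 202 ± 57.0 CPM in Control (SD, n = 4), and the median log2 fold change over the 26 clustered genes tested was 0.05. H1f8 and H1f10 were lower, and H2bc8 and H1f2 higher, in every Aged+CF ovary than in every Control ovary, against 12.2% of all genes tested lower and 9.69% higher. A p that misses the threshold does not show that the levels were alike.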

How the data were processed

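Ovarian RNA was sequenced in 10 libraries. The deposited table, made by the authors, holds raw read counts per gene and FPKM values for each ovary. The submitters' processing notes list TopHat, Cufflinks 2.1.1 and GRCm38.p4. The counting tool, strand setting and annotation are not given in the sources used here. Counts were tested with the quasi-likelihood test of edgeR 4.0 in R 4.3 on all 10 ovaries with TMM scaling and filterByExpr (18956 genes kept), and p-values were adjusted over all genes tested. A call needed a fold change of at least 1.5 and an adjusted p under 0.05. The procedure was tested on simulated data. DESeq2 1.42, other scalings, no filter, 2-group fits, a replicate block and leaving out ovaries were the alternatives. Depth was 15761789 to 21318254 counts per library. Gene models came from GENCODE M21, which held 55227 of the 55487 identifiers, and promoters from RefSeq. Columns with the authors' own comparisons were not used.

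Members and gene lists were chosen with earlier results of these data known. Genes were named by a rule. In each comparison it took up to 8 called members with a mean of at least 1 CPM, or the 3 largest changes each way at an unadjusted p where fewer than 3 were called. It added the 3 highest by FPKM of each class, 4 genes given in advance, the neighbours of the count limit, and up to 3 called genes of each other list besides Slbp and Npat. Casp8ap2, Cstf2, H1f4, H2ac6, H2ac8, H2bc9, H2bc11, H3c4, H3c6, Hist1h2bq and Hist1h4n were named after their values were seen.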

Additional observations from a re-analysis of the deposited data

Results flagged for a closer look

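In the 4 Control ovaries, 3 of 30 sets of values examined held an ovary far from the others by Dixon's ratio of gap to range. Chance alone flags about 1 in 20 groups. H1f4 was highest in Control 31, at 0.759 CPM against 0.254 to 0.312 CPM in the others (ratio 0.885). H4c14 was also highest in Control 31, at 1.17 CPM against 0.456 to 0.561 CPM (ratio 0.853). The sum of H1f0, H1f8 and H1f10 was highest in Control 32, at 301 CPM against 265 to 271 CPM (ratio 0.856).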

How the results depend on the processing

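In Aged vs Control the 13 calls became 6 with the 2 compared groups alone and 2 to 18 with an ovary left out, and every one of those 6 was among the 13. In Aged+CF vs Aged the 0 calls became 7 with DESeq2, 12 at an unadjusted p and 0 to 8 with an ovary left out. Those at an unadjusted p ranged from 10 to 19 with an ovary left out. In Aged+CF vs Control the 0 calls became 1 with the 2 compared groups alone, 1 with DESeq2, 3 at an unadjusted p and 0 to 1 with an ovary left out. For the fits with the 2 compared groups alone, and for most fits with an ovary left out, the share of all genes called is not given here. The changes in these counts are therefore not a result about the members. The log2 ratio of the summed level, 0.79 for Aged over Control and −0.66 for Aged+CF over Aged, became 1.56 and −1.11 without the 3 genes outside the clusters, an alternative chosen after seeing the data. Class sums and counts over the other gene lists without Aged 34 were also chosen after seeing the data. With deposited FPKM, DESeq2 size factors and no filter, medians and sums over all members kept their direction in both comparisons with the Aged group. The sum of the H2A genes without H2ac18 and H2ac19 did not keep its direction with FPKM. Its log2 ratio was 0.33 in CPM and −0.02 in FPKM for Aged over Control. For Aged+CF over Aged it was −0.32 in CPM and 0.01 in FPKM.

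Ovaries that share a number in their labels are different animals, and their deviations from the group means correlated between −0.18 and 0.15, so the numbers do not pair the ovaries. A replicate block on the number gave 3 calls in Aged vs Control, and 0 at the adjusted p and 2 at an unadjusted p in Aged+CF vs Aged, with a median of −0.48 in place of −1.08. Under the block H1f2 stood at 0.10 and H3c3 at 0.53 in Aged+CF vs Aged, while H2ac18 stood at −0.78 in the first comparison and at 2.67 in the second.

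With an ovary left out, log2 fold changes in Aged vs Control ranged from −0.11 to 0.24 for H1f0, −8.31 to 3.43 for H2ac18, −0.61 to 0.63 for H2ac7, −0.026 to 1.33 for H3c14, −1.10 to 0.054 for H3c3 and −0.90 to 0.31 for Hist1h2ao. In Aged+CF vs Aged they ranged from −0.11 to 0.25 for H1f0, −0.095 to 0.32 for H1f10, −12.87 to 8.05 for H2ac18, −1.14 to 0.10 for H2ac7, −0.84 to 0.39 for H3c14 and −0.16 to 1.06 for Hist1h2ao. The cause of these changes was not tested. Genes under 1 CPM, and the all-or-none counts of H2ac18, limit what depth can show.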
